A study of Mus musculus with 96 samples.

Results

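Hematopoietic cells (HCs) of the uninjured mouse heart were compared with fibroblasts (FBs) by small RNA sequencing, at D0 of a time course of myocardial infarction (MI). HCs and FBs at D0 made up 8 of the 96 libraries of the series, 4 of each cell type, and a library entered the comparison if its counts on mature miRNAs summed to at least 100000. This kept 7 libraries, namely HC replicates 1, 2 and 4 and FB replicates 1 to 4. HC replicate 3 held 18286 mature counts and was left out. The authors set aside a D0 library of each of these cell types as an outlier without naming it, so that an FB library kept here may be the one they removed. All D0 mice were adult male C57Bl/6J animals without MI, and RNA of 3 mice was pooled for a library, or of fewer where a sample was missing. By the study's methods the pools of the cell types drew on the same animals, while the labels do not say that equal replicate numbers mark the same pool. After the cardiomyocytes (CMs) had been spun down, HCs were taken from the supernatant with magnetic beads against CD45, the surface marker of leukocytes. Endothelial cells (ECs) were also taken with magnetic beads. FBs were the cells left unbound that attached to uncoated dishes within 40 minutes, and most of them carried DDR2. HC and FB libraries were both made from 150 ng of total RNA with 15 PCR cycles. Libraries were prepared by cell type, so that the cell type and its preparation cannot be told apart.

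MicroRNAs (miRNAs) are short RNAs that guide Argonaute proteins to mRNAs. Most of the pairing is made by the seed, bases 2 to 8 from the 5′ end, so that miRNAs with a common seed share many targets. A hairpin precursor can give a mature miRNA from its 5′ arm (5p) and from its 3′ arm (3p). Leukocytes carry miR-142a as a pan-hematopoietic miRNA and miR-223 as a myeloid miRNA, while mesenchymal cells such as FBs are known for the miR-199/miR-214 genes and for the large imprinted miRNA cluster of the Dlk1-Dio3 region.

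The mature sequences below belong to miRNAs on which the comparison turned, with the seed in capitals. They are from RefSeq (GRCm38.p6), which held 1679 of the 1978 mature miRNAs listed in the files. The leukocyte and macrophage miRNAs, each with a seed of its own, are shown first.
miR-142a-3p: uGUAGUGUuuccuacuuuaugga
miR-142a-5p: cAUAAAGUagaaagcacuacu
miR-223-3p: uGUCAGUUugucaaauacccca
miR-223-5p: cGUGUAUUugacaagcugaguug
miR-511-3p: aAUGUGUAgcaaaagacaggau
The miRNAs of the inflammatory response come next, of which the miR-146 pair shares the seed GAGAACU.
miR-146a-5p: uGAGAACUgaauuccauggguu
miR-146b-5p: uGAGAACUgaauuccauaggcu
miR-155-5p: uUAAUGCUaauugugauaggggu
miR-21a-5p: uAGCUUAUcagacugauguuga
The AGCAGCA family is shown because its members were divided between the cell types.
miR-15b-5p: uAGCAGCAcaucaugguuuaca
miR-16-5p: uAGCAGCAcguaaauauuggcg
miR-195a-5p: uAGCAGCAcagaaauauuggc
miR-497a-5p: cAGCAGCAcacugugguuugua
Abundant miRNAs that were lower in HCs than in FBs are shown last, with the miR-125 pair sharing the seed CCCUGAG.
miR-199a-5p: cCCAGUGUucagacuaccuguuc
miR-199a-3p: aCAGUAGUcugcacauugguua
miR-127-3p: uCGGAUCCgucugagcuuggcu
miR-379-5p: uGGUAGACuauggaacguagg
miR-125a-5p: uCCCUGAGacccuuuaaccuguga
miR-125b-5p: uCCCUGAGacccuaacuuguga

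Both arms of miR-142a are cut from a hairpin on the plus strand of chromosome 11 (GRCm38.p6), with miR-142a-5p at chr11:87756867-87756887 and miR-142a-3p at chr11:87756903-87756925, in an intron of the non-coding gene Mir142hg. The arms of miR-223 lie on the plus strand at chrX:96242842-96242864 and chrX:96242884-96242905, in an exon of a non-coding transcript. The sequence of miR-511-3p is at chr2:14261051-14261072, on the plus strand in an intron of Mrc1, which encodes the mannose receptor of macrophages. miR-146a-5p (chr11:43374435-43374456, minus strand) overlaps no other annotated gene, while miR-146b-5p (chr19:46342790-46342811, plus strand) lies in an intron of Mfsd13a. miR-21a-5p (chr11:86584120-86584141, minus strand) lies within an exon of Vmp1.

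The values are numbers of reads aligned to each mature miRNA, given here per 1000000 mature counts of the library (CPM). The 3 HC libraries held 26449253 to 29504666 mature counts and the FB libraries 2217588 to 19196750, with FB replicate 2 the shallowest. At least 1 read was found for 932 to 994 miRNAs per HC library and for 570 to 852 per FB library. Rank correlations of CPM across miRNAs, which are not independent replicates, were 0.986 to 0.990 within HCs, 0.960 to 0.991 within FBs and 0.789 to 0.816 between them. FB replicate 2 stood apart, with rank correlations of 0.960 to 0.973 to the other FB libraries, which had 0.988 to 0.991 among themselves. In bulk libraries, fewer cells of a type and less RNA per cell cannot be told apart.

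The label of the HC libraries was checked against miR-142a-3p and miR-223-3p. The CPM of miR-142a-3p was 4160.0, 3094 and 3425 in HC replicates 1, 2 and 4, and 43.7, 25.7, 88.4 and 41.5 in the FB libraries. All HC libraries stood above all FB libraries, by 5.95 ± 0.38 (SE) on the log2 scale. The adjusted p was 1.86e-07 in the quasi-likelihood test of edgeR, adjusted by Benjamini-Hochberg over 567 miRNAs, which gave the adjusted p-values hereafter unless another test is named. For miR-223-3p, a brake on myeloid activation, the CPM was 813, 675 and 753 in HCs. It was 0.365, 1.35, 0.171 and 0.312 in FBs, where these values stood on 7, 3, 3 and 4 reads. The log2 fold change was 10.90 ± 0.37 (adjusted p = 4.48e-09). The mean level of miR-142a-3p was 0.931 CPM in CMs and 10.1 CPM in ECs, 4 libraries each, and that of miR-223-3p was 0.0986 and 0.8289 CPM. Both markers were thus high in each HC library and low in the other cell types. The sum of the 4 leukocyte miRNAs was 4925 to 6353 CPM in HCs against 37.0 to 121 CPM in FBs, most of the latter being miR-142a-3p.

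**Figure D1:**
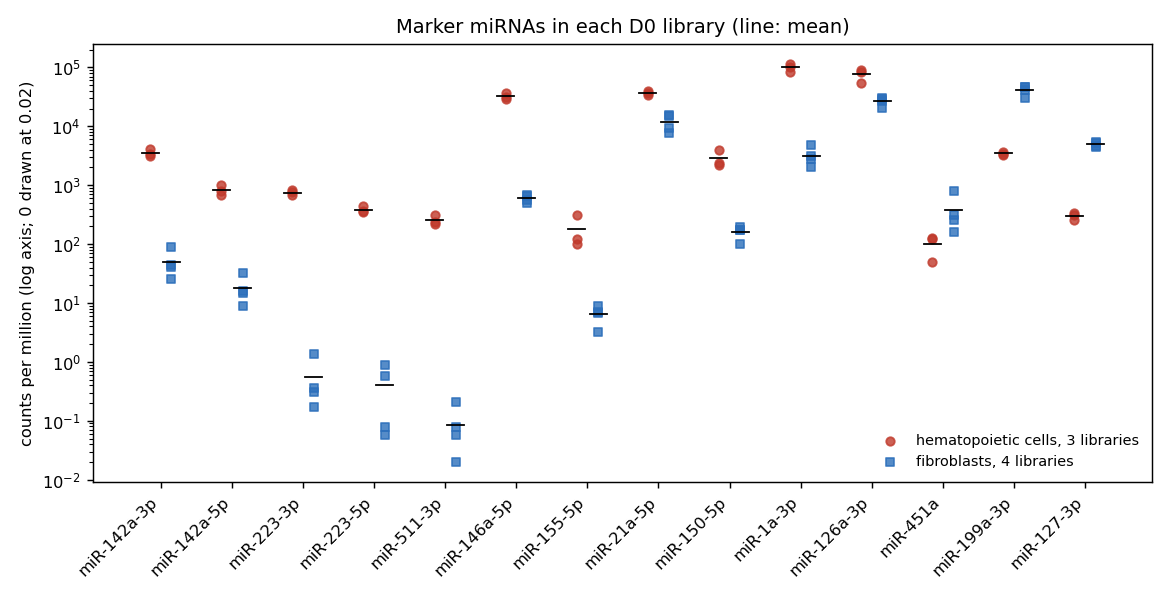
CPM of 14 marker miRNAs on a log axis in each HC library (red circles) and each FB library (blue squares) at D0, with the group mean as a line. The groups do not overlap for any of the 14, with miR-223-3p at 675 to 813 CPM in HCs and 0.171 to 1.35 CPM in FBs, and the FB library without a read of miR-511-3p is drawn at 0.02.

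The profiles of the cell types were far apart. Of 567 miRNAs that passed the filter on low counts, 393 differed at an adjusted p under 0.05 (69.3%), with 221 higher in HCs (39.0%) and 172 lower (30.3%). No overlap between the groups was found for 44.4% of tested miRNAs with HCs above and for 27.3% with HCs below. Without FB replicate 2 the numbers were 222 and 181. At least a 4-fold difference was reached by 96 of the 221 and by 114 of the 172. The median log2 fold change over all tested miRNAs was 0.29, and 0.46 when libraries were scaled by their size alone, so that small positive values stand close to the median. The counts of list members given below are to be read beside the 39.0% of all tested miRNAs that were higher and the 30.3% that were lower.

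**Figure D2:**
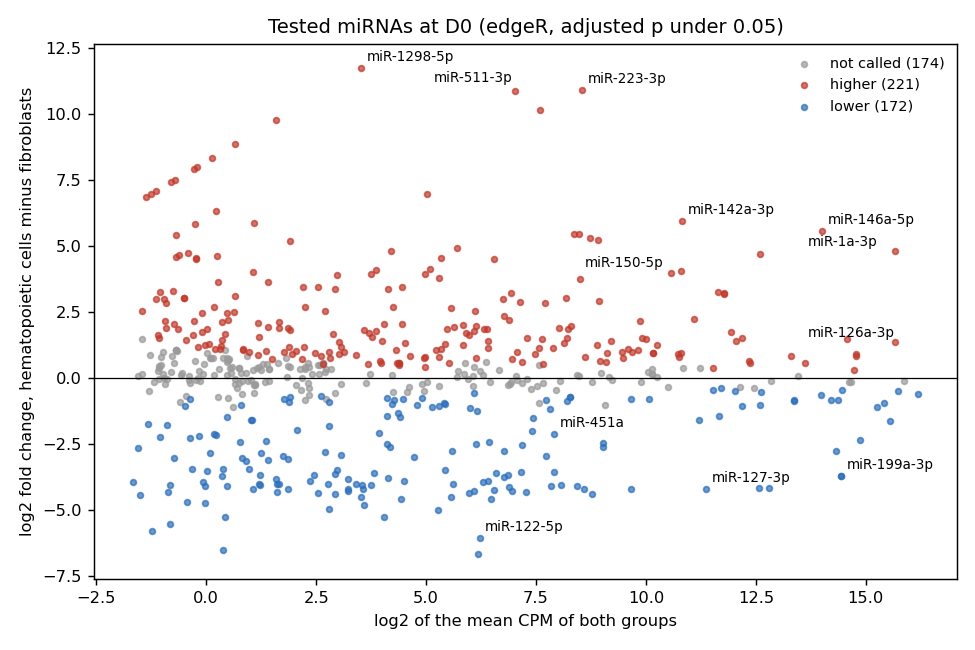
Log2 fold change of HCs against FBs at D0 (y axis) by the log2 of the mean CPM of both groups (x axis) for the 567 tested miRNAs, with 221 higher in HCs in red, 172 lower in blue and 174 that did not pass in grey. miR-146a-5p and miR-1a-3p combine a high level with log2 fold changes of 5.56 and 4.80, and miR-223-3p and miR-511-3p stand near the top with few reads in FBs.

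The HC profile was spread over many miRNAs. The 10 most abundant took 52.4% to 53.3% of the counts in HC libraries and 51.7% to 58.2% in FB libraries, and 42 to 44 miRNAs made up 90% of the counts in HCs, against 31 to 35 in FBs. By mean CPM the 10 were miR-1a-3p, miR-126a-3p, let-7a-5p, let-7f-5p, miR-26a-5p, miR-30d-5p, miR-30a-5p, miR-21a-5p, miR-146a-5p and miR-99a-5p. Of these, 6 were higher in HCs than in FBs, among them miR-30d-5p and miR-30a-5p of the widely expressed miR-30 family with log2 fold changes of 0.92 and 0.85. let-7a-5p, miR-26a-5p and miR-99a-5p were lower, with -0.62, -0.51 and -0.96. let-7f-5p did not pass the test (log2 fold change of -0.10, adjusted p = 0.37), and its value turned positive with library size scaling (0.0784).

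The most abundant miRNA of the HC libraries was miR-1a-3p, the main miRNA of heart muscle. Its CPM was 114639, 102125 and 84468 in HCs and 3149, 2764, 2033 and 4817 in FBs, with no overlap between the groups (log2 fold change of 4.80 ± 0.27, adjusted p = 6.80e-08). Its mean was 657447 CPM in CMs and 102953 CPM in ECs, so that HCs held 15.3% and 97.5% of these levels. All 9 tested members of the cardiomyocyte list of 10 were higher in HCs than in FBs, with a median log2 fold change of 5.24. The summed list was 85829 to 116646 CPM in HCs, 2058 to 4864 CPM in FBs, 75974 to 134335 CPM in ECs and 603412 to 709086 CPM in CMs.

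Other muscle miRNAs followed miR-1a-3p. miR-133a-3p was at 795, 713 and 575 CPM in HCs and at 8.35 to 19.4 CPM in FBs (log2 fold change of 5.46), and its near-identical relative miR-133b-3p, which may share reads with it, had 5.47. miR-499-5p, from an intron of the myosin gene Myh7b, was at 1088, 1097 and 637 CPM in HCs and 15.3 to 27.1 CPM in FBs (5.24). miR-208a-3p, from an intron of the cardiac myosin gene Myh6, was at 85.9, 122 and 95.5 CPM in HCs and 0.451 to 4.53 CPM in FBs (4.93). In share of the CM level by CPM, HCs held 177% for miR-133a-3p, 86.7% for miR-208a-3p and 78.4% for miR-499-5p, against 15.3% for miR-1a-3p. miR-1a-3p alone took 60.2% to 70.7% of the CM counts, which leaves less CPM for the other CM miRNAs. Scaling factors (TMM) in the fit of all D0 libraries were 0.171 to 0.244 in CMs and 1.93 to 2.06 in HCs. With these factors the shares would be much lower, so that they do not compare amounts per cell. The CM mean of miR-133a-3p rested on CM replicate 1 (903 CPM, the other CM libraries at 182 to 295 CPM), and without it the share was 314%. With scaling factors computed without the cardiomyocyte and endothelial lists, the number of miRNAs higher in HCs than in FBs moved by 1 and the number lower by 0. The leukocyte miRNAs were at 0.918 to 2.28 CPM in the CM libraries, as a sum.

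The endothelial marker miR-126a-3p, from within the gene Egfl7, was also higher in HCs, at 55238, 84040.1 and 90242 CPM against 28799.6, 27085, 20223 and 29978 CPM in FBs. The groups did not overlap and the log2 fold change was 1.36 ± 0.19 (adjusted p = 7.51e-05). Both members of the endothelial list passed, miR-126a-5p with a log2 fold change of 0.95. HCs held 39.6% of the EC level of miR-126a-3p and FBs 13.7%. The summed list was 56673 to 91837 CPM in HCs, 20888 to 30916 CPM in FBs and 174749 to 215247 CPM in ECs. The part of CM and EC RNA in the difference of any one miRNA was not tested.

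Among miRNAs of leukocytes, those of the myeloid lineage had the largest log2 fold changes, which rest on few reads in FBs. By CPM in HCs, miR-142a-3p and the lymphocyte miRNA miR-150-5p stood above miR-223-3p and miR-511-3p. All 4 members of the leukocyte list were higher in HCs, with a median log2 fold change of 8.06. The CPM of miR-142a-5p was 1019, 809 and 679.9 in HCs and 15.9, 9.02, 32.1 and 14.5 in FBs (log2 fold change of 5.31 ± 0.38, adjusted p = 4.07e-07). That of miR-223-5p was 361, 347 and 450.2 in HCs and 0.573, 0.902, 0.0572 and 0.0781 in FBs (10.17 ± 0.50, adjusted p = 3.83e-08). Neither overlapped between the groups. The macrophage miRNA miR-511-3p was at 317, 217 and 239.8 CPM in HCs and at 0.208, 0, 0.0572 and 0.0781 CPM in FBs, a log2 fold change of 10.88 ± 0.36 (adjusted p = 4.48e-09). It had 4, 0, 1 and 1 reads in the FB libraries, so that its fold change rests on few reads there. Its other arm, miR-511-5p, did not pass the filter on low counts, at 0.407 to 1.13 CPM in HCs.

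Of 13 miRNAs of the inflammation list, 12 were tested, with 8 higher in HCs, 3 lower and a median log2 fold change of 1.61. miR-146a-5p, which is induced by NF-kB and restrains it through Traf6 and Irak1, was at 36451, 28549 and 31504 CPM in HCs and 683, 500.1, 559.7 and 663 CPM in FBs. Its level did not overlap between the groups (log2 fold change of 5.56 ± 0.16, adjusted p = 2.75e-09). miR-146b-5p followed with 3528, 3336 and 3184 CPM against 185, 181, 149 and 208 CPM (4.04). Both carry the seed shown above and stood apart from FBs by more than 4 on the log2 scale.

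miR-155-5p, which rises in activated macrophages and lymphocytes, was at 317, 102 and 122 CPM in HCs and 8.91, 3.16, 6.63 and 7.03 CPM in FBs (4.52 ± 0.42, adjusted p = 3.03e-06), with HC replicate 1 above the other HC libraries. miR-21a-5p, known from inflammation and fibrosis, was high in both cell types, at 33419, 37301 and 39173 CPM in HCs and 9251, 7588, 14744 and 15248 CPM in FBs (1.47). The 3 members that were lower in HCs, miR-132-3p, miR-212-3p and miR-212-5p, come from a pair of neighbouring hairpins and had log2 fold changes of -1.33, -1.58 and -1.47. They were chosen after their values were seen.

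Of the 8 members of the lymphocyte list, 5 were higher in HCs and 3 lower (37.5%, near the 30.3% of all tested miRNAs), with a median log2 fold change of 1.34. miR-150-5p, abundant in mature B and T cells, was at 4024, 2242 and 2425 CPM in HCs and 176, 198, 102 and 171 CPM in FBs, with no overlap (3.99 ± 0.27, adjusted p = 2.49e-07). Its level in ECs was 2372 CPM on average, and the log2 difference of HCs minus ECs was -0.02 ± 0.45 (adjusted p = 0.98). miR-342-3p, from an intron of Evl, was at 298 to 439.5 CPM in HCs, 34.3 to 57.5 CPM in FBs and 314 CPM on average in ECs. miR-181a-5p, which acts in lymphocyte development, was higher in HCs (0.62), while its relatives miR-181b-5p and miR-181d-5p, which may share reads, were lower (-0.79 and -0.78).

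The miR-17 clusters are known for promoting proliferation. All 17 tested members of their list of 19 were higher in HCs, with a median log2 fold change of 1.40. The list does not hold every miRNA of these clusters. By RefSeq position the cluster on chromosome 14 had 10 tested miRNAs, 8 higher and 2 that did not pass, from -0.23 to 2.14. Those on chromosome 5 and the X chromosome had 6 and 5 tested, all higher. miR-19b-3p has a gene in the cluster of chromosome 14 and in that of the X chromosome and was counted in both. miR-17-5p and miR-106a-5p are near-identical in sequence and may share reads, so that the counts of these clusters are not independent. The most abundant of the list was miR-25-3p, at 3796, 3238 and 3430.0 CPM in HCs and 2074, 2493, 2801 and 2225 CPM in FBs. Its difference was close to the median of all miRNAs (0.36, adjusted p = 0.041). miR-20a-5p was at 1838, 1241 and 1568 CPM against 208, 145, 421 and 458 CPM (2.14). miR-93-5p and miR-19b-3p had log2 fold changes of 1.40 and 1.24. The largest fold changes of the list, 3.93 and 5.19, were those of miR-20b-5p and miR-363-3p from the copy of the cluster on the X chromosome, at 18.8 to 34.1 and 5.999 to 9.49 CPM in HCs. Another list held 11 miRNAs of a further cluster of the X chromosome, with miR-322 and miR-503. All 11 were higher in HCs, with a median of 1.53. By RefSeq position that cluster had 13 tested miRNAs, 12 higher and 1 that did not pass, with a median of 1.44. The most abundant of the 11 were miR-450a-5p (312 to 382 CPM in HCs, 112 to 160.4 CPM in FBs) and miR-351-5p (248 to 283 and 74.7 to 138 CPM). Both had a higher mean in ECs, with 379 and 378 CPM. Under the other settings except a test against 2-fold, at least 14 of the 17 and 7 of the 11 passed. Against 2-fold, 8 of the 17 and 5 of the 11 passed.

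Clusters of neighbouring miRNA genes were also read. Where hairpins of a strand lay within 10000 bases of each other, the cluster on the minus strand at chrX:7237695-7248440, in an intron of Clcn5, had 7 tested mature miRNAs, all higher in HCs, with a median log2 fold change of 2.35. Counts by position leave out miRNAs without a RefSeq sequence, among them miR-532-5p, the other arm of miR-532-3p of this cluster. It was at 5788, 6102 and 6688 CPM in HCs and 1753, 1817, 1544 and 1418 CPM in FBs (1.75). miR-501-3p of the same cluster was at 829 to 908 CPM against 86.7 to 111 CPM (2.93). The cluster of miR-200 genes on the minus strand at chr4:156053916-156055742 had 5 tested members, all higher in HCs (median 3.65). miR-200 miRNAs are markers of epithelium, and 5 of the 6 tested members of the epithelial list were higher in HCs. miR-200c-3p was at 65.9 to 80.3 CPM in HCs, 3.75 to 6.12 CPM in FBs and 15.4 CPM in ECs on average (3.80), and miR-200a-3p at 56.6 to 78.1 CPM against 1.71 to 5.001 CPM (4.15). The epithelial miRNA miR-203-3p was at 264 to 280.5 CPM in HCs and 221 to 317 CPM in FBs and did not pass (adjusted p = 0.57).

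Members of the miR-15/miR-16 family, which share the seed shown above, differed in both directions. miR-16-5p was at 2368, 2409 and 2579.8 CPM in HCs and 1021, 815, 1334 and 1346 CPM in FBs (log2 fold change of 0.94), and miR-15b-5p at 114 to 153 CPM against 21.6 to 57.5 CPM (1.38). The members from the cluster on chromosome 11 went the other way, with miR-195a-5p at 129.9, 172 and 175 CPM in HCs and 820.2, 715, 996 and 979 CPM in FBs (-2.64). miR-497a-5p was at 52.6 to 56.4 CPM against 204 to 499.5 CPM (-2.96). None of these overlapped between the groups. Of the 9 members of the list, 5 were higher, 3 lower (33.3%, near the 30.3% of all) and miR-15a-5p did not pass, at 57.5 to 73.6 CPM in HCs and 6.76 to 97.8 CPM in FBs, with FB replicate 2 lowest.

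FBs stood above HCs most of all in a pair of gene groups. All 46 tested miRNAs of the Dlk1-Dio3 list of 49 were lower in HCs, with a median log2 fold change of -4.16. miR-127-3p was at 253, 314 and 336 CPM in HCs and 5438, 5263, 4661 and 4519 CPM in FBs (-4.22 ± 0.18, adjusted p = 1.29e-08). miR-379-5p was at 84.6, 89.0 and 105 CPM in HCs and 1472, 1627, 1494 and 1507 CPM in FBs (-4.21). The summed list was 558 to 731 CPM in HCs, 10159.7 to 10949 CPM in FBs, 626 to 808 CPM in ECs and 48.5 to 73.2 CPM in CMs. All 6 miRNAs of the miR-199/miR-214 list were lower in HCs, with a median of -3.91. miR-199a-3p, with counts identical to those of miR-199b-3p in the files, was at 3706, 3408 and 3316 CPM in HCs and 40565, 30442, 45807 and 46265 CPM in FBs (-3.73 ± 0.18, adjusted p = 2.91e-08). miR-199a-5p was at 802, 792 and 923 CPM in HCs and 11404, 9867, 16894 and 15580.0 CPM in FBs (-4.18), and miR-214-3p at 24.7 to 31.9 CPM against 337 to 483 CPM (-4.10).

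Among miRNAs of at least 100 CPM in FBs, the 10 largest falls were led by miR-122b-3p and miR-122-5p. miR-122-5p, the main miRNA of the liver, was at 2.65, 2.50 and 2.14 CPM in HCs and 141, 243, 93.9 and 108 CPM in FBs (-6.07 ± 0.39, adjusted p = 1.86e-07). miR-122b-3p had 1.12 to 1.88 CPM against 91.8 to 235 CPM (-6.69). Its FB mean of 143 CPM was close to the 146 CPM of miR-122-5p. The pair may share reads, so that these may not be separate falls. The other members of the liver list, miR-192-5p and miR-194-5p, did not pass (0.20 and 0.49), but were higher with library size scaling. miR-34b-5p, of the p53-induced miR-34 family, was at 11.3 to 14.9 CPM in HCs and 152 to 289 CPM in FBs (-4.30), and miR-676-3p at 40.7 to 46.9 CPM against 521 to 1023 CPM (-4.22). The other 6 were miR-382-5p, miR-541-5p, miR-409-3p, miR-337-5p, miR-134-5p and miR-300-3p of the Dlk1-Dio3 region, from -4.58 to -4.25.

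Other lists gave smaller or mixed differences. Of 9 let-7 miRNAs, regulators of growth and differentiation, 6 were lower in HCs, with let-7b-5p at 10141 to 11550.2 CPM against 44805 to 55397 CPM (-2.37) and let-7c-5p at 24614 to 26589 CPM against 64409 to 80412 CPM (-1.64). let-7g-5p, the remaining member that passed, was higher by 0.29, close to the median of all tested miRNAs, and did not pass with the replicate block. It was named after its value was seen. Of 9 tested miRNAs of the miR-99/miR-100/miR-125 list, 8 were lower, and 7 with library size scaling. miR-125b-5p was at 5515, 5885 and 6056 CPM in HCs against 38563, 37196, 32080.2 and 31599.7 CPM in FBs (-2.76), and miR-100-5p had a log2 fold change of -1.09.

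The miR-23/miR-27/miR-24 list had 1 of 11 higher and 3 lower (27.3%, near the 30.3% of all), and none lower with library size scaling. Its most abundant member, miR-27a-3p, did not pass (23806 to 27219 CPM in HCs, 21183 to 28113 CPM in FBs). The miR-29 list, known for repressing collagens, had 2 of 7 lower (28.6%, near the 30.3% of all), miR-29a-3p (-1.04) and miR-29c-3p (-1.06), whose ranges overlapped between the groups and of which none passed with all 8 libraries. In the mesenchymal list 4 of 13 were higher (30.8%) and 5 lower (38.5%), near the shares of all tested miRNAs, with miR-10a-5p (1.51), which may share reads with miR-10b-5p, and miR-152-3p (-1.45) as examples. In the miR-221/miR-222 list 3 of 4 were higher, miR-221-3p with 0.96. In the mural list, which marks smooth muscle cells and pericytes, 1 of 4 was lower (near the share of all), miR-145a-3p (-0.89). miR-143-3p did not pass (20593 to 31220.4 CPM in HCs and 23596 to 26515 CPM in FBs, adjusted p = 0.42), and its sign turned with library size scaling.

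Red blood cell miRNAs did not pass as higher in HCs. Of the 7 members of the erythroid list 3 were lower and 0 higher in edgeR, with 0 higher at an unadjusted p under 0.05 and 0 higher in DESeq2. miR-451a was at 127, 124 and 50.1 CPM in HCs and 308, 256, 803 and 162 CPM in FBs (-2.12 ± 0.54, adjusted p = 0.0047), and miR-144-3p and miR-144-5p had -2.79 and -2.49. miR-486a-5p, which shares its counts with miR-486b-5p, was at 1016, 1347 and 1352 CPM in HCs and 685, 1238, 1547 and 519.9 CPM in FBs and did not pass (adjusted p = 0.73).

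**Figure D3:**
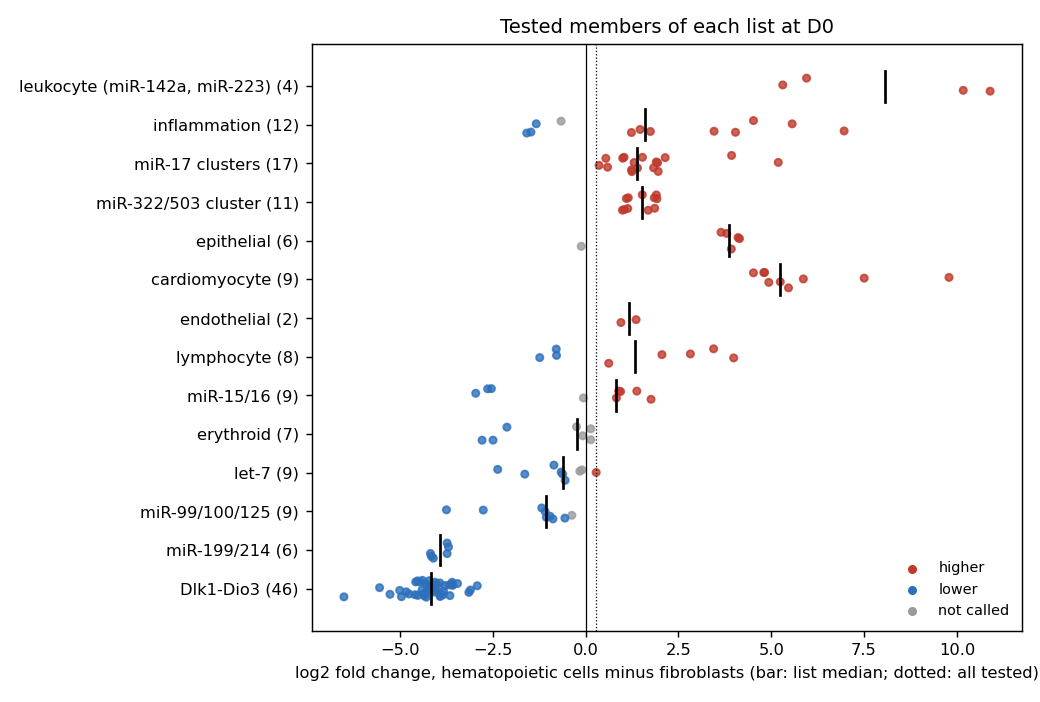
Log2 fold changes of HCs against FBs at D0 for the tested members of 14 lists, with the number tested in brackets, the list median as a black bar and the median of all 567 tested miRNAs as a dotted line. The leukocyte and cardiomyocyte lists lie highest, with medians of 8.06 and 5.24, and the Dlk1-Dio3 and miR-199/miR-214 lists lowest, with medians of -4.16 and -3.91.

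To see which miRNAs set HCs apart from all other heart cells sampled, HCs were also tested against CMs and ECs at D0, in a fit of 15 libraries. The 3 comparisons share the HC libraries. Against CMs 370 of 561 miRNAs passed (66.0%), 207 higher in HCs (36.9%) and 163 lower (29.1%), and against ECs 289 passed (51.5%), 161 higher (28.7%) and 128 lower (22.8%). Library size as the sole scaling gave 499 against CMs (88.9%), with 481 higher (85.7%) and 18 lower (3.21%), and 294 against ECs (52.4%), with 211 higher (37.6%) and 83 lower (14.8%). HCs were higher than each of FBs, CMs and ECs for 68 of the 542 miRNAs tested in all comparisons (12.5%). All 68 were also among the 130 found with library size as the sole scaling. None of the cardiomyocyte or endothelial miRNAs was among the 68, and all 4 leukocyte miRNAs were.

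By level, the 68 were led by miR-21a-5p and miR-146a-5p, at 36631 ± 2935 and 32168 ± 3993 CPM in HCs (SD, n = 3). For miR-146a-5p ECs came next with 4204 CPM, and the log2 difference of HCs minus ECs was 2.63. They were followed by miR-191-5p (6601 CPM), miR-181a-5p (6568 CPM), miR-532-5p (6193 CPM) and miR-340-5p (3696 CPM), for each of which FBs came next by mean CPM. In the fit of 15 libraries the log2 difference of HCs minus CMs was 1.92 for miR-340-5p, less than its 2.22 against FBs. The difference of miR-191-5p from FBs was small, at 0.55 on the log2 scale. miR-340-5p, from an intron of Rnf130, was at 4223, 3598 and 3269 CPM in HCs and 611, 474, 815 and 896 CPM in FBs (2.22). miR-7a-5p and miR-7b-5p, at 1550.3 and 1464 CPM, are near-identical in sequence and may share reads. miR-339-5p was at 685 ± 26.1 CPM in HCs (SD, n = 3), 44.4 CPM in FBs, 111 CPM in ECs and 4.41 CPM in CMs. miR-191-5p, miR-532-5p, miR-501-3p, miR-7a-5p, miR-7b-5p and miR-339-5p, like miR-20b-5p and miR-363-3p above, were chosen after their values were seen.

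**Figure D4:**
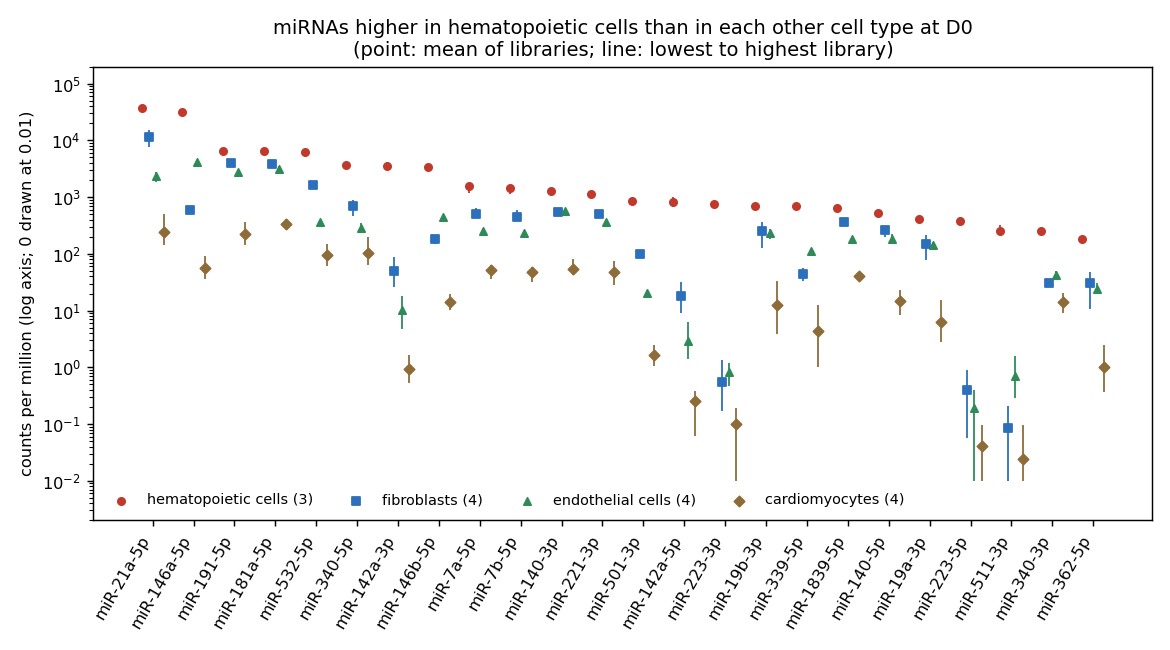
Mean CPM on a log axis, with a line from the lowest to the highest library, of the 24 most abundant of the 68 miRNAs that were higher in HCs than in each of FBs, ECs and CMs at D0. HCs (3 libraries, red) lie on top throughout because the miRNAs were chosen for this. Among those shown, miR-223-3p, miR-223-5p and miR-511-3p have the widest gaps to the other cell types (4 libraries each).

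Among miRNAs that were higher in HCs, 11 had no read in any FB library. Of these 4 had reads in CMs or ECs, among them the muscle miRNAs miR-133a-5p, with 203, 190 and 102 reads in HCs, 290 in CMs and 89 in ECs (at least 104-fold higher in HCs than in FBs), and miR-1a-1-5p, with 39, 29 and 34 reads in HCs, 36 in CMs and 68 in ECs. The other 7 had no read in CMs or ECs either. The most abundant was miR-1298-5p, with 478, 630 and 828 reads in HCs and 0 in the FB, CM and EC libraries, which held 51716822, 53756544 and 31096994 mature counts in all. Its mean of 23.0 ± 4.998 CPM (SD, n = 3) was at least 396-fold higher than the 0.0580 CPM that 3 reads over the whole FB group would give. Its gene lies in an intron of Htr2c on the X chromosome, which encodes a serotonin receptor. miR-1264-3p had 36, 51 and 58 reads in HCs and 0 in the other cell types, and was at least 29.7-fold higher. miR-5107-3p had 77, 87 and 100 reads (at least 54.3-fold higher), and miR-5104, from an intron of Zc3h12d, had 34, 30 and 32 reads (at least 19.9-fold higher). These miRNAs were chosen after their values were seen, and limits of this kind cover counting error only. Without a read in FBs, the 11 could pass the filter on low counts only through HCs, so that their direction was fixed by the filter. The reverse case, with reads in FBs and none in HCs, was not counted.

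Counts were also summed by seed where RefSeq gave a sequence. The 393 seed families so formed were tested with 84 single miRNAs that had no sequence, and of these 477 together 320 passed (67.1%), 153 higher in HCs (32.1%) and 167 lower (35.0%), and with library size scaling 195 were higher and 140 lower. Of the 393 seed families alone, 128 were higher and 152 lower. Identical counts were taken once, and this fit had its own library sizes and TMM factors. The CPM and fold change of a family with a single miRNA therefore differ from those given for that miRNA above. The sums and the ranking by size leave out miRNAs without a sequence, among them miR-1a-3p, miR-150-5p, miR-378a-3p and miR-199b-5p (-4.15, 732 CPM in HCs and 11524 CPM in FBs), so that a sum is not the whole family. The 5 largest rises among seed families of at least 1000 CPM were GUAGUGU (miR-142a-3p, 5.71), GAGAACU (miR-146a-5p and miR-146b-5p, 5.07), CUGGACU (miR-378c, 2.99), CUGGCCU (miR-378d, 2.96) and UAUAAAG (miR-340-5p, 1.98). The GAGAACU family had 35695 ± 4132 CPM in HCs (SD, n = 3) and 817 ± 108 CPM in FBs (SD, n = 4). miR-378c and miR-378d are close in sequence to miR-378a-3p, a miRNA of energy metabolism that was at 6340.3 CPM in HCs and 622 CPM in FBs, and reads may be shared among them. miR-378a-3p, miR-378c and miR-378d were not among the miRNAs found higher in HCs than in each of FBs, CMs and ECs. The 5 largest falls among the seed families were CGGAUCC (miR-127-3p, -4.48), GGUAGAC (miR-379-5p, -4.47), CCAGUGU (miR-199a-5p, -4.43), CAGUAGU (miR-199a-3p and miR-199b-3p, -3.98) and CCCUGAG (miR-125a-5p, miR-125b-5p and miR-351-5p, -2.20). The last family, as summed, had 14178 CPM in HCs and 50153 CPM in FBs, although miR-351-5p, its rarest member, was higher in HCs (1.15).

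The ratio of the 5p to the 3p arm was compared for 117 hairpins. At an adjusted p under 0.05 in limma, 28 ratios differed (23.9%), 16 higher in HCs (13.7%) and 12 lower (10.3%), and 38.5% of the hairpins did not overlap between the groups. For miR-21a the log2 ratio was 13.12, 12.96 and 12.95 in HCs and 10.91, 12.23, 10.73 and 10.95 in FBs, a difference of 1.80 ± 0.36 (adjusted p = 0.015 in limma), with FB replicate 2 closest to HCs. For let-7b it was 7.96, 7.87 and 8.03 in HCs and 9.01, 8.97, 9.39 and 9.41 in FBs, a difference of -1.24 ± 0.19 (adjusted p = 0.011 in limma). Neither overlapped between the groups. The others named by size were miR-29c, miR-339 and miR-145a with differences of 1.33, 1.14 and 1.11, and miR-361, miR-26b and miR-423 with differences of -1.05, -0.86 and -0.82. With the replicate number as a block 0 ratios passed in limma, 31 having an unadjusted p under 0.05. Likewise 0 passed without HC replicate 1, where 33 had an unadjusted p under 0.05, and 42 passed without FB replicate 2, so that these calls depend on single libraries.

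The contrast was read again at D28, 28 days after MI, in 4 HC and 4 FB libraries that share no library with D0. They were fitted together with the D0 libraries, so that the filter, the scaling and the estimate of spread are not independent of D0. At D28 488 of 629 miRNAs passed (77.6%), 295 higher in HCs (46.9%) and 193 lower (30.7%). Of the 221 that were higher in HCs at D0, 198 passed in the same direction at D28 and 3 in the opposite one. Of the 172 that were lower, 152 passed in the same direction. The difference between the contrasts at D0 and D28 itself passed for 105 of 629 miRNAs (16.7%), with 46 above 0 (7.31%) and 59 below 0 (9.38%) for D0 minus D28. It was 27 and 128 with library size scaling.

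Of the 4 leukocyte miRNAs, miR-142a-5p passed the test of that difference, with a log2 fold change of HCs against FBs of 5.31 at D0 and 7.33 at D28 and a difference of -1.89 ± 0.43 (adjusted p = 0.0049 in edgeR). Its mean was 836 ± 171 CPM in HCs at D0 (SD, n = 3) and 1459.5 ± 171 CPM at D28 (SD, n = 4), and 17.9 and 7.04 CPM in FBs. The differences for miR-142a-3p, miR-223-3p and miR-223-5p were -1.18, 1.85 and 1.21, with adjusted p-values of 0.094, 0.24 and 0.32 in edgeR, and the levels of miR-223 in FBs stood on few reads at D0. miR-142a-3p passed in 3 of the alternatives, at -1.43 without FB replicate 2 of D0 (adjusted p = 0.026 in edgeR), at -1.51 without FB replicate 4 of D28 (adjusted p = 0.034) and at -1.50 with library size scaling (adjusted p = 0.033). miR-511-3p and miR-146a-5p did not pass either (1.76 and 0.24).

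The miRNAs with the largest falls were chosen by their D0 difference, which favours a smaller difference at D28, so their values are a description. For miR-382-5p HCs held 7.96 ± 0.676 CPM at D0 (SD, n = 3) and 27.7 ± 1.63 CPM at D28 (SD, n = 4), while FBs held 169 and 197 CPM (-1.23). For miR-34b-5p HCs held 13.5 ± 1.90 CPM at D0 (SD, n = 3) and 87.6 ± 19.5 CPM at D28 (SD, n = 4), while FBs held 235 and 402 CPM (-1.58).

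**Figure D5:**
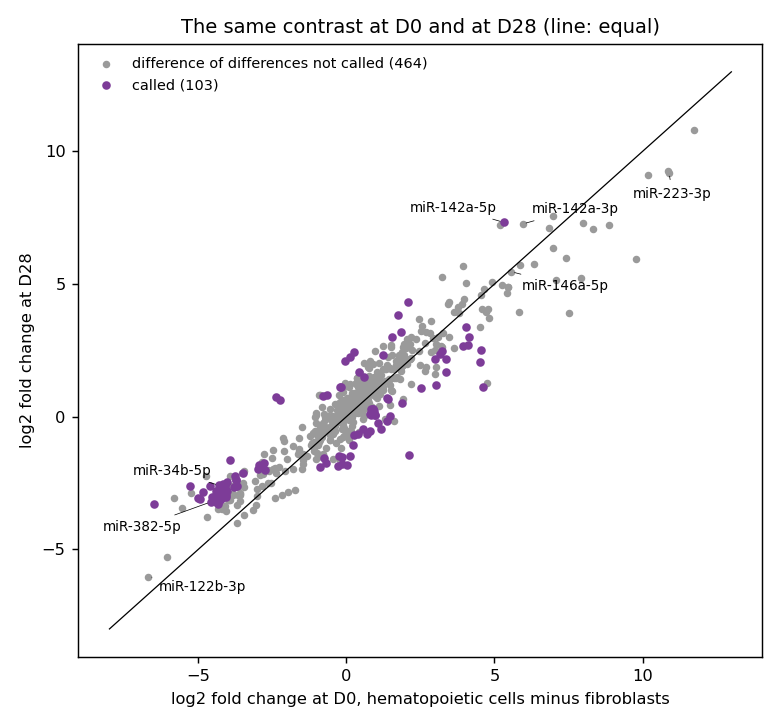
Log2 fold change of HCs against FBs at D0 (x axis) and at D28 (y axis) for the 567 miRNAs tested at both times, with the line of equal values. The 103 miRNAs whose difference between the times passed are purple, and the leukocyte miRNAs lie on the positive side at both times.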

How the data were processed

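Small RNA libraries of HCs and FBs at D0 were analysed, with CMs and ECs at D0 and HCs and FBs at D28 for reference. The authors trimmed adaptors, aligned reads to mature miRBase sequences with the nf-core small RNA pipeline and deposited raw counts of aligned reads per mature miRNA, without normalization. Trim Galore, Bowtie2, SAMtools and mm10 are named in the submitters' processing notes. How reads matching several miRNAs were assigned is not given in the sources used here, and identical counts were found for 77 mature miRNAs, which formed 32 sets. The line of unmatched reads, 27.7% to 39.6% of the total in the 7 libraries, entered neither library sizes nor tests. Hairpin counts were not used.

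The counts were tested with edgeR 4.0.16 in R 4.3.3 (TMM factors, filterByExpr, quasi-likelihood test, Benjamini-Hochberg adjustment, threshold of 0.05) on the 7 libraries. An SE given with an edgeR value was derived from the test, as the size of the log2 fold change over the square root of the F statistic. HCs were tested against CMs and ECs in a fit of the 15 D0 libraries, and D28 and its difference from D0 in another fit of 15. Seed families were summed with identical counts taken once, miRNAs without a RefSeq sequence being kept single. Arm ratios were log2 ratios (pseudocount 0.5, at least 10 counts per arm on average), tested with limma 3.58.1. The scripts were tested on simulated data. Alternatives were DESeq2 1.42.0, library size scaling, no filter, other pseudocounts and minimum counts, all 8 libraries, a block, a test against 2-fold, scaling without the erythroid list, a fit of all D0 libraries and each library left out. Scaling without the cardiomyocyte and endothelial lists, thinning to the shallowest library and calls required under both scalings were added after the data were seen.

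Samples were grouped by their labels, and replicates are separate pools of mice as far as the sources say, so that p-values cover the spread between these libraries. The miRNAs, lists and tests were chosen with earlier results of these data known. Named miRNAs were the markers, the 10 most abundant in HCs, the 10 largest rises and falls with at least 100 CPM in the higher group and no overlap, the 5 largest seed family and 4 largest arm ratio differences in each direction, and the 2 to 4 most abundant members of each list. Members that show the split of a list, genomic clusters, miRNAs absent from FBs and those highest in HCs were chosen after their values were seen. Positions come from RefSeq and GENCODE annotation of GRCm38, the build of mm10.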

Additional observations from a re-analysis of the deposited data

Results flagged for a closer look

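FB replicate 2, the shallowest FB library at D0, stood apart from the other FB libraries for miR-223-3p (1.35 CPM, from 3 reads) and for miR-145a-5p (694 CPM, with 1006 CPM the highest). These were 2 of 44 groups of values examined, and chance alone sets about 1 in 20 groups apart in this way.

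The difference between HCs and FBs passed the test of a change between D0 and D28 for 8 of the 20 miRNAs read, against 16.7% of all 629 miRNAs tested. Of the 8, all but miR-142a-5p were chosen for their large falls at D0, which favours a smaller difference at D28, so that this count is no result about them. The D0 difference minus the D28 difference was -1.89 for miR-142a-5p, -1.23 for miR-382-5p, -1.04 for miR-541-5p, -0.93 for miR-409-3p, -1.16 for miR-337-5p, -1.58 for miR-34b-5p, -0.97 for miR-134-5p and -1.07 for miR-676-3p, each with an adjusted p under 0.05 in edgeR. For miR-409-3p the adjusted p in edgeR was 0.057 without FB replicate 4 of D28.

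The HC library of D0 that was left out, with 18286 mature counts, held leukocyte miRNAs above every FB library at D0. It had 45 reads of miR-142a-3p (2461 CPM) and 21 reads of miR-223-3p (1148 CPM), and the highest FB values were 88.4 and 1.35 CPM. It also had 2385 reads of miR-1a-3p (130428 CPM).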

How the results depend on the processing

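The counts of miRNAs that differed between HCs and FBs stayed within 1.5 times under every alternative except the test against 2-fold, which left 132 higher. DESeq2 called 215 higher and 184 lower, of which 215 and 172 were shared with edgeR. Each library left out gave 204 to 238 higher and 153 to 181 lower. Libraries of HCs and FBs with equal replicate numbers did not deviate together (correlations of -0.047 to 0.014 for the 3 pairs), and with the replicate block 203 were higher and 159 lower. let-7a-5p, miR-26a-5p, miR-30a-5p, miR-30d-5p, miR-99a-5p and miR-126a-5p no longer passed against 2-fold, and miR-26a-5p not without HC replicate 1. Signs turned for values that had not passed. For let-7f-5p the log2 fold change was 0.078 with library size scaling and -0.10 to 0.025 with each library left out. For miR-143-3p it was 0.029 and -0.30 to 0.19, and for miR-486a-5p -0.040 to 0.48 with each library left out.

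With library size as the sole scaling, 481 miRNAs were higher and 18 lower against CMs, 83 were lower against ECs, and 130 were higher in HCs than in each other cell type. Among arm ratios, a minimum of 50 counts per arm left 9 higher, all 8 libraries left 2 higher and 1 lower, and the replicate block left 0 higher and 0 lower in limma (31 with an unadjusted p under 0.05). Each library left out gave 0 to 22 higher and 0 to 20 lower ratios, with none without HC replicate 1 (33 with an unadjusted p under 0.05 in limma). For the difference between D0 and D28, library size scaling gave 27 above and 128 below 0, the replicate block within days 35 below, and each library left out 47 to 94 below, the most without FB replicate 2 of D0. Signs turned for miR-146a-5p (-0.11 with library size scaling) and miR-208a-3p (-0.35 with library size scaling, -0.036 with DESeq2, -0.19 with the replicate block, -0.24 to 0.31 with each library left out), neither of which had passed. The causes were not tested. The depth of FB replicate 2 limits what can be said of miRNAs under 1 CPM in FBs.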

Other observations

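miR-122-5p was present in ECs and FBs and nearly absent from HCs and CMs. It was at 125.2 to 216 CPM in the 4 EC libraries and 93.9 to 243 CPM in the FB libraries at D0, and at 2.14 to 2.65 CPM in HCs and 0.561 to 1.56 CPM in CMs. At D28 it was at 46.1 to 115 CPM in FBs and 1.59 to 3.35 CPM in HCs.

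miR-1298-5p also had reads in HCs at D28, at 7.33 to 22.6 CPM, and none in the 4 FB libraries of D28. miR-142b, on the strand opposite to miR-142a, was at 2.30 ± 0.171 CPM in HCs at D0 (SD, n = 3). The hairpins overlap, and miR-142b may share reads with miR-142a, whose 3p arm was at 3560 CPM on average in these libraries. miR-1298-5p and miR-142b were chosen after their values were seen.

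The CPM of CM miRNAs in HCs was lower at D28 than at D0 as a description, with miR-1a-3p at 25923 to 42029.6 CPM and miR-499-5p at 179 to 366 CPM at D28, against 84468 to 114639 CPM and 637 to 1097 CPM at D0. No test of HCs between the days was made.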
